A study of Homo sapiens with 12 samples.

Results

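The 44 genes described here are effector genes of the interferon response. They were chosen by symbol as the MX, OAS, IFIT, IFITM, GBP, SAMD9, HERC and PARP families together with 22 single genes. All 44 were found in the deposited table of 57500 genes, each in 1 row. The choice was made with earlier results of these data known. Counts of calls set beside the share of all genes are therefore a description and not a test of the list. RNA was sequenced from MRC5, a line of human embryonic lung fibroblasts grown under atmospheric oxygen, in 4 groups of 3 libraries. Prol cells were proliferating and not irradiated, and the cells called Sen(IR) had entered senescence after a dose of 20 Gy of X-rays. Sen(IR)+UK5099 cells had the same irradiation and 100 µM UK5099, an inhibitor of the mitochondrial pyruvate carrier. Sen(IR)+CTPI2 cells had the same irradiation and CTPI2, an inhibitor of the citrate carrier SLC25A1. The study's methods name 15 and 30 µM of CTPI2 without saying which was sequenced, and both are below the dose of UK5099, so the inhibitors were compared at unequal doses. The inhibitors were added 1 day after irradiation, and the methods say they were kept in the medium for 12 days. For irradiated cells in general the methods give collection 10 to 12 days after irradiation. The exact day for these libraries is not stated. The vehicle given to cells without inhibitor is not stated in the labels, and the labels do not say whether the 3 libraries of a group came from separate cultures. The study's figure legends call them independent conditions or experiments without further detail, so the p-values measure the spread between these libraries, which may be technical in part.

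Type I interferons bind a receptor on the cell surface, and its JAK kinases activate a complex of transcription factors that includes IRF9. The complex binds the interferon-stimulated response element (ISRE) near the starts of its target genes, whereas interferon gamma acts largely through a different element (GAS). The effector proteins made from these genes degrade or bind foreign RNA, block the entry or release of viruses, or attach the ubiquitin-like protein ISG15 to other proteins. Fibroblasts can make and answer type I interferon, and the response is a known part of late senescence.

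The sequences before the gene starts are shown first, because the ISRE is the element these genes are known for and because the members differ in how many copies they carry. In RefSeq (GRCh38.p14) 35 of the 44 genes matched a promoter, and MX2, OAS2, OASL, IFIT2, IFITM2, USP18, TRIM22, GBP2 and LY6E did not. The core searched was GAAA and GAAA separated by any 2 bases, on both strands in the 250 bases before each start, where overlapping matches were each counted. It was present for 24 of the 35 matched genes, and in 28 of their 49 promoters (57.1%), against 3.02% of all 35116 promoters. The GAS letters TTCNNNGAA were present for 11 of the 35 genes, and in 12 of the 49 promoters (24.5%), against 6.57% of all promoters. A match is a description of the letters and not a site of binding. Other spacings were not searched, so a gene without a match may still carry a variant of the element.

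Windows of 30 bases around matches are given 5′ to 3′ on the strand of the gene, with the core in capitals, and an ISRE core that lies on the opposite strand reads as TTTC and TTTC separated by 2 bases. The first set holds the gene of the tagging protein itself and members that carry the core and rose strongly in senescent cells, namely ISG15 (chr1:1013377-1013406, plus strand), MX1 (chr21:41431844-41431873, plus strand, before 1 of its listed starts), IFI6 (chr1:27672288-27672317, minus strand), IFI44L (chr1:78620365-78620394, plus strand), RSAD2 (chr2:6877622-6877651, plus strand), IFI27 (chr14:94110625-94110654, plus strand) and BST2 (chr19:17405738-17405767, minus strand). The MX1 match lies 196 to 187 bases before that start. Before another listed start of MX1 the letters tttcgtttc and tttcatttc occur, at a shorter spacing that was not searched.
ISG15: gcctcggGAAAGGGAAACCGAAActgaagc
MX1: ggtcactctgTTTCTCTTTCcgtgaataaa
IFI6: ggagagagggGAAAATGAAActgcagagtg
IFI44L: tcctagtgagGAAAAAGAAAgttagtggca
RSAD2: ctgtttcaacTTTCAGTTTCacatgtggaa
IFI27: cagTTTCGGTTTCctgGAAAATGAAAccta
BST2: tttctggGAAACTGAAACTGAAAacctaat

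The second set holds genes whose level with UK5099 was below that of proliferating cells, namely OAS3 (chr12:112938321-112938350, plus strand), IFIT1 (chr10:89392504-89392533, plus strand), EPSTI1 (chr13:42992272-42992301, minus strand) and GBP1 (chr1:89065316-89065345, minus strand). The last lines show IFIT5 (chr10:89414513-89414542, plus strand) and IFITM3 (chr11:320884-320913, minus strand), which carry the core as well and were not called with UK5099.
OAS3: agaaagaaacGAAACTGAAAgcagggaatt
IFIT1: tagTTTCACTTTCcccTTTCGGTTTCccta
EPSTI1: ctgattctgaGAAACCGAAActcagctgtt
GBP1: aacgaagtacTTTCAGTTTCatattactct
IFIT5: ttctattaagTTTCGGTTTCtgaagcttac
IFITM3: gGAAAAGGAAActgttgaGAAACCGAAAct
IFI6 carried 3 cores before its start and IFI44L carried a second copy of the same 30 letters. The core was thus found in genes that responded strongly and in genes that were not called with UK5099. The 11 matched genes without the core in this window were OAS1, HERC6, XAF1, CMPK2, IFI35, SAMD9L, GBP3, UBE2L6, IFI16, DTX3L and SP110. All but IFI16, DTX3L and SP110 were also called higher in senescence and lower with UK5099. The bases before OAS1 hold gaaacgaaa and those before a start of CMPK2 hold tttcgtttc, both with a shorter spacing that was not searched.

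Library totals ran from 20597736 to 28245693 counts, and 3 counts correspond to between 0.111 and 0.147 CPM, the unit of level used here, which scales counts to a common library size. Of the 44 genes, all passed the filter on low counts that left 16251 genes for testing. All 8 fibroblast markers were above 1 CPM in every library, and their summed level was 10544 to 10987 CPM with UK5099 against 17421 to 24516 CPM in the other groups, where COL1A1, COL1A2 and COL3A1 made up most of the gap. The plasmacytoid dendritic cell markers LILRA4 and CLEC4C had 0 counts in every library, and 6 leukocyte markers summed to between 0.256 and 4.99 CPM, most of it CD14. The 3 endothelial markers summed to at most 1.36 CPM. The 5 epithelial markers, nearly all of it KRT18 and KRT8, summed to between 59.2 and 71.8 CPM for Prol, between 24.1 and 26.9 for Sen(IR), between 16.1 and 17.4 under UK5099 and between 22.7 and 24.6 with CTPI2. The part of these shifts in the results below was not tested, and in bulk RNA fewer responding cells and less RNA per cell cannot be told apart. One library stood apart for these genes. Sen(IR) replicate 1 had the highest level of its group for 35 of the 44 genes, whereas it was highest for 33.3% of all genes tested. The summed level of the 44 genes was 2628 CPM in that library, 2199 and 2271 CPM in the other Sen(IR) libraries, 1228 to 1386 CPM in Prol, 1230 to 1254 CPM with UK5099 and 2102 to 2128 CPM with CTPI2. For the comparisons of Sen(IR) with Prol and with each inhibitor, the edgeR counts of calls and the medians over the 44 genes are therefore given with and without it. Other counts are given with all libraries unless stated. Of the calls of single genes, only that of MX1 with CTPI2 against Sen(IR) was not made without it.

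**Figure D1:**
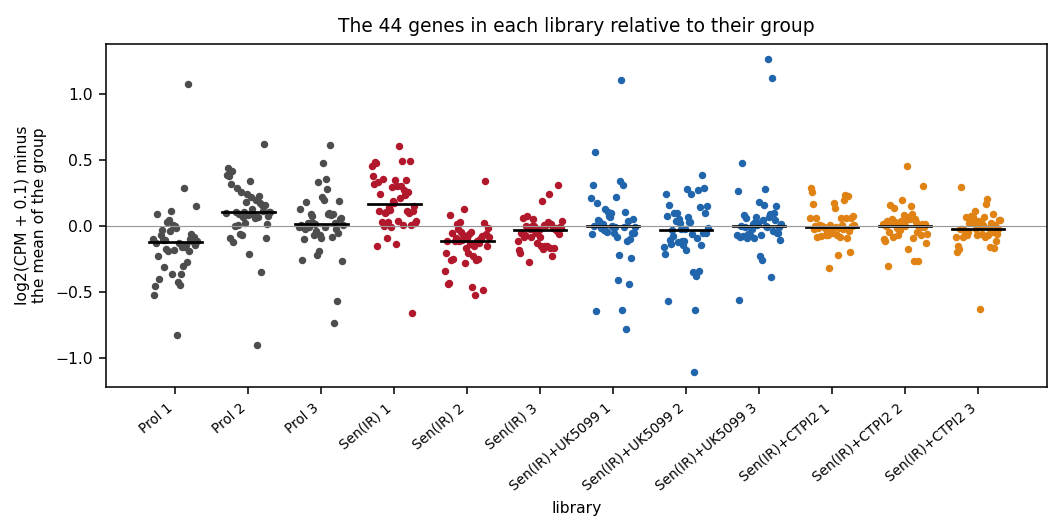
Each point is 1 of the 44 genes in 1 library, plotted as its log2(CPM + 0.1) minus the mean of its group, and the black bar is the median of the 44. Sen(IR) replicate 1 lies above its group for most genes, and it was the highest library of its group for 35 of 44.

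Senescence raised most of the genes. Against Prol, 34 of the 44 were called higher in Sen(IR), where 24.8% of all genes tested were called higher, and 3 were called lower (GBP1, IFITM2 and IFI16), where 22.4% were. A call needed an adjusted p under 0.05 (edgeR's quasi-likelihood test, Benjamini-Hochberg over all genes tested) and an absolute log2 fold change over 0.5. The median log2 fold change was 1.35 over the 44 genes and 0.01 over all genes. The libraries of both groups did not overlap for 37 genes that were higher and 3 that were lower, against 35.3% and 35.5% of all genes. Without Sen(IR) replicate 1 the counts were 34 higher and 3 lower and the median was 1.37.

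UK5099 lowered most of them. Against Sen(IR), 36 of the 44 were called lower, where 12.1% of all genes were, and 0 were called higher, where 8.76% were. None of the 44 was higher at an unadjusted p under 0.05 in edgeR, where 25.2% of all genes were, and DESeq2 also called 36 lower and 0 higher. The median was −1.89, against 0.01 over all genes, and 43 of 44 log2 fold changes were negative, against 49.0% of those of all genes. The libraries of UK5099 lay below those of Sen(IR) without overlap for 41 genes, against 28.6% of all genes. Without Sen(IR) replicate 1 the counts were 36 lower, 0 higher and 43 negative, and the median was −1.76.

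With CTPI2 the differences were small. Against Sen(IR), 2 of the 44 genes were called lower (MX1 and IFI6), where 0.148% of all genes were, and 0 were called higher, where 0.0185% were. DESeq2 called 2 others lower (IFI44 and XAF1) and 0 higher, so that no gene was called by both tools. The median was −0.19, against 0.00 over all genes, and 38 of 44 log2 fold changes were negative, as were 49.0% of those of all genes. An unadjusted p under 0.05 was reached by 22 genes in the lower direction, where 4.44% of all genes did so, and by 0 in the higher direction, where 2.83% did. Without Sen(IR) replicate 1 these values were 1 gene called lower (IFI6) and 0 higher, a median of −0.13 and 36 negative values. An unadjusted p under 0.05 was then reached by 6 genes, all in the lower direction. The share of all genes that reached it in that fit is not given here. The 3 comparisons share the Sen(IR) libraries, so their values are given side by side and not as independent results.

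**Figure D2:**
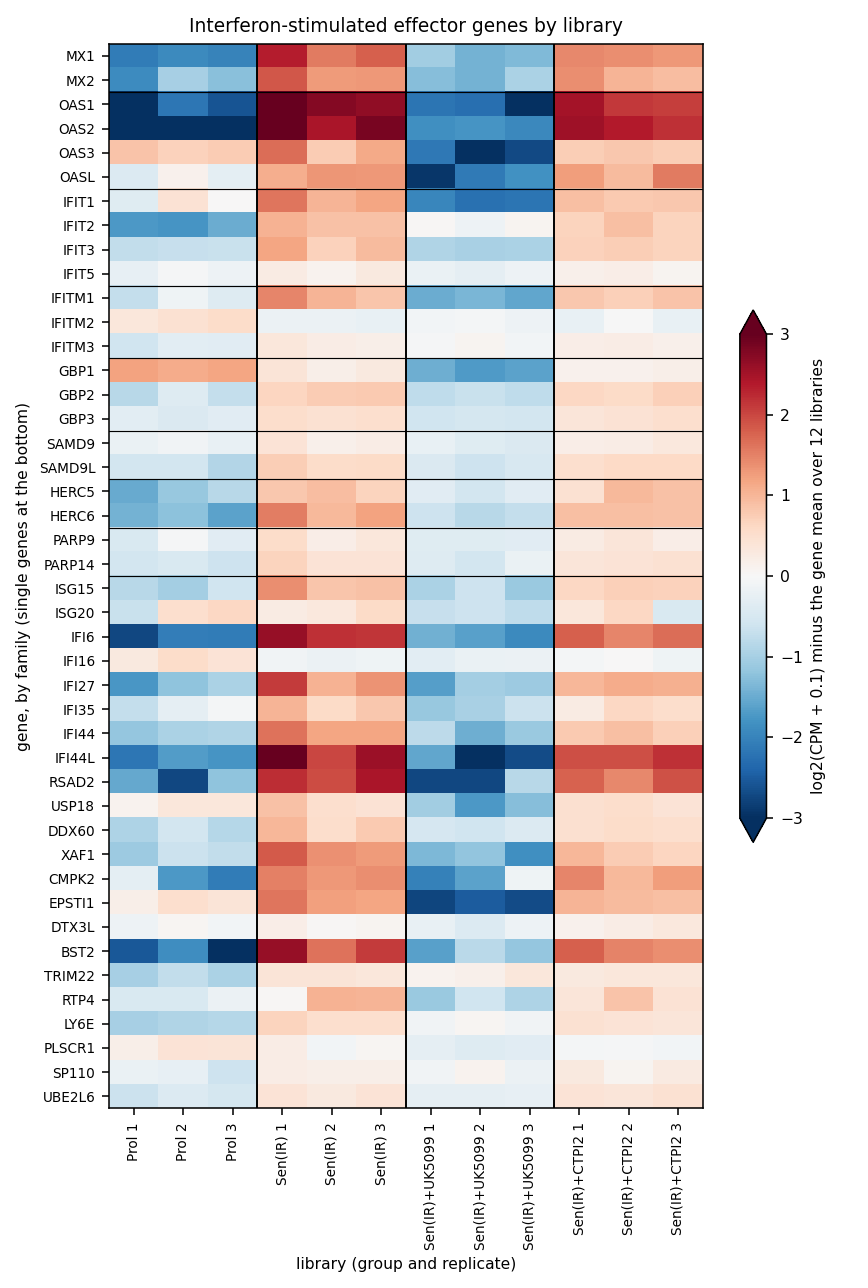
Rows are the 44 genes by family and columns the 12 libraries, and the colour gives log2(CPM + 0.1) minus the mean of that gene over the 12 libraries. Most rows are red in the Sen(IR) and CTPI2 libraries and blue in the Prol and UK5099 libraries, while GBP1 and OAS3 are red in Prol too and IFITM2 and IFI16 are highest in Prol.

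**Figure D3:**
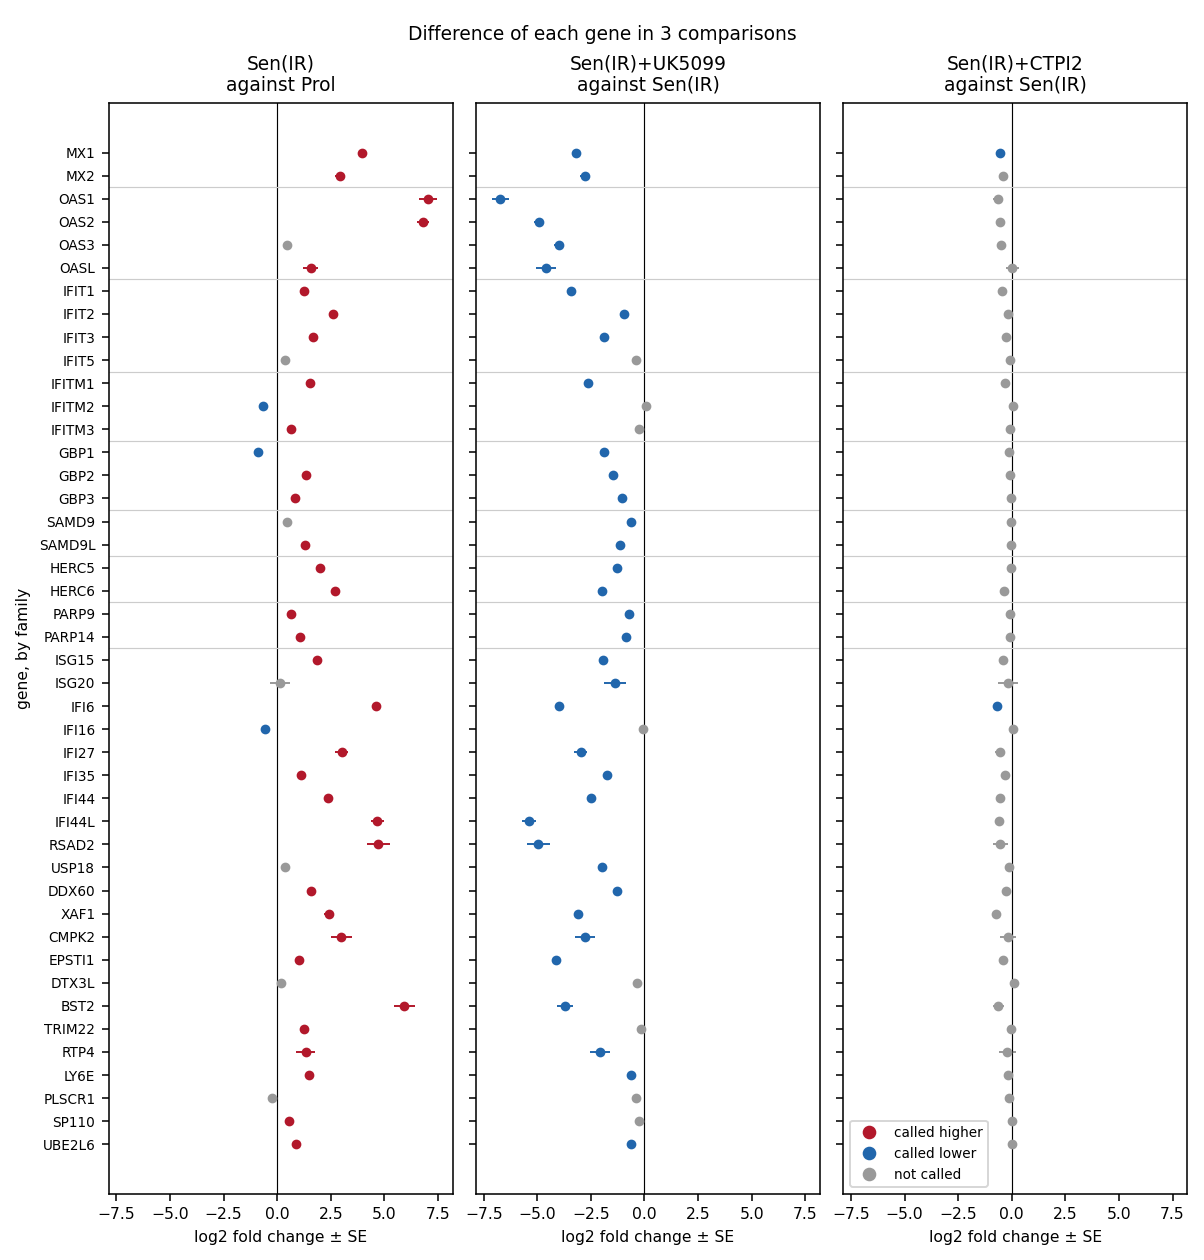
Points are fitted log2 fold changes with their SE for each gene in Sen(IR) against Prol, Sen(IR)+UK5099 against Sen(IR) and Sen(IR)+CTPI2 against Sen(IR), coloured by call. Of the 44 genes, 34 are called higher in the first panel, 36 lower in the second and 2 lower in the third, and the fitted values of OAS1, OASL and BST2 depend on the prior count where a group has 3 counts or fewer in each library.

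The OAS enzymes, which sense double-stranded RNA and make the oligoadenylates that switch on RNase L, had the widest span of log2 fold changes of the 8 families in Sen(IR) against Prol. OAS1, OAS3 and OAS2 lie side by side on chromosome 12 between 112905856 and 113011723 (GRCh38, GENCODE v44), and OASL, a relative without the enzyme activity, lies apart at 121017763 to 121039246. OAS2 stood at 0.213, 0.343 and 0.186 CPM in Prol, at 37.9, 19.9 and 26.0 CPM in Sen(IR), at 0.911, 0.964 and 0.853 CPM under UK5099 and at 21.1, 18.8 and 16.6 CPM with CTPI2. The UK5099 libraries lay above all Prol libraries and far below all Sen(IR) libraries, and those of CTPI2 overlapped with Sen(IR). Its log2 fold change was 6.81 ± 0.29 (SE) in Sen(IR) against Prol, −4.93 ± 0.23 with UK5099 and −0.57 ± 0.15 with CTPI2 (edgeR adjusted p of 2.08e-15, 5.00e-14 and 0.141). The OAS2 value with CTPI2 was −0.28 without Sen(IR) replicate 1.

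OAS1 was barely detected outside the senescent cells without UK5099. It had 3 counts in all in the Prol libraries and 4 in the UK5099 libraries, against 7.43, 5.50 and 5.15 CPM (388 counts) in Sen(IR) and 4.56, 3.51 and 3.42 CPM with CTPI2. From the pooled counts the level in Sen(IR) was 149 times that in Prol (95% exact interval from 50.6 to 725, for counting error only) and 117 times that with UK5099 (45.2 to 430). Between Prol and UK5099 no fold is given, since both were at or under 3 counts in each library.

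OAS3 differed from its neighbours in that proliferating cells already expressed it. It measured 16.8, 14.8 and 15.7 CPM in Prol and 29.3, 15.6 and 20.3 CPM in Sen(IR), so that these groups overlapped (log2 fold change 0.47 ± 0.16, and 0.18 without Sen(IR) replicate 1). With UK5099 it was at 1.99, 0.853 and 1.32 CPM, below every library of the other groups. The difference was −3.99 ± 0.22 from Sen(IR) and −3.52 ± 0.23 from Prol (edgeR adjusted p of 1.54e-12 and 3.25e-12).

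OASL was low throughout and was lost with UK5099. Its levels were 0.469, 0.730 and 0.520 CPM in Prol, 1.51, 1.80 and 1.77 CPM in Sen(IR) and 1.71, 1.36 and 2.12 CPM with CTPI2, while the UK5099 libraries held 5 counts in all. The rise in Sen(IR) over Prol was 1.56 ± 0.33 (edgeR adjusted p = 0.000281). From pooled counts Sen(IR) stood 26.0 times above UK5099 (10.8 to 81.6) and Prol 8.78 times above it (3.48 to 28.4). All 4 OAS genes were thus called lower with UK5099 than in Sen(IR), and 3 of 4 were called higher in Sen(IR) than in Prol.

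MX1 and MX2 encode dynamin-like GTPases that trap incoming viral particles, and they are neighbours on chromosome 21 between 41361999 and 41470071. MX1 measured 4.86, 5.58 and 5.17 CPM in Prol and 108, 62.2 and 72.8 CPM in Sen(IR), with Sen(IR) replicate 1 well above the others. It measured 10.1, 7.83 and 8.33 CPM with UK5099 and 57.3, 55.3 and 51.9 CPM with CTPI2. No library of any group overlapped with those of another. MX1 rose 15.6-fold in senescence (log2 fold change 3.96 ± 0.16) and was 9.26-fold lower with UK5099 (−3.21 ± 0.15), but it stayed above Prol by 0.75 ± 0.19 (edgeR adjusted p of 1.22e-15, 6.03e-14 and 0.00126). With CTPI2 the difference from Sen(IR) was −0.56 ± 0.13 (edgeR adjusted p = 0.0428). Without Sen(IR) replicate 1 it was −0.30 with an adjusted p of 0.413, and DESeq2 gave an adjusted p of 0.239. The call was also not made without Sen(IR) replicate 3, without any 1 of the CTPI2 libraries or without Sen(IR)+UK5099 replicate 3.

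MX2 ran lower, at 0.938, 1.85 and 1.52 CPM in Prol, 13.9, 9.29 and 9.42 CPM in Sen(IR), 1.49, 1.34 and 1.90 CPM under UK5099 and 10.1, 7.72 and 7.19 CPM with CTPI2. The UK5099 and Prol libraries overlapped, and the difference between these groups was 0.13 ± 0.28. It was 2.92 ± 0.22 in Sen(IR) against Prol and −2.79 ± 0.21 with UK5099 against Sen(IR) (edgeR adjusted p of 5.74e-11 and 3.46e-10). Per length of exon, MX1 stood above MX2 in Sen(IR), by the union of exons (4.50 and 0.747 CPM per kb) as well as by the canonical transcript (29.1 and 3.19 CPM per kb).

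**Figure D4:**
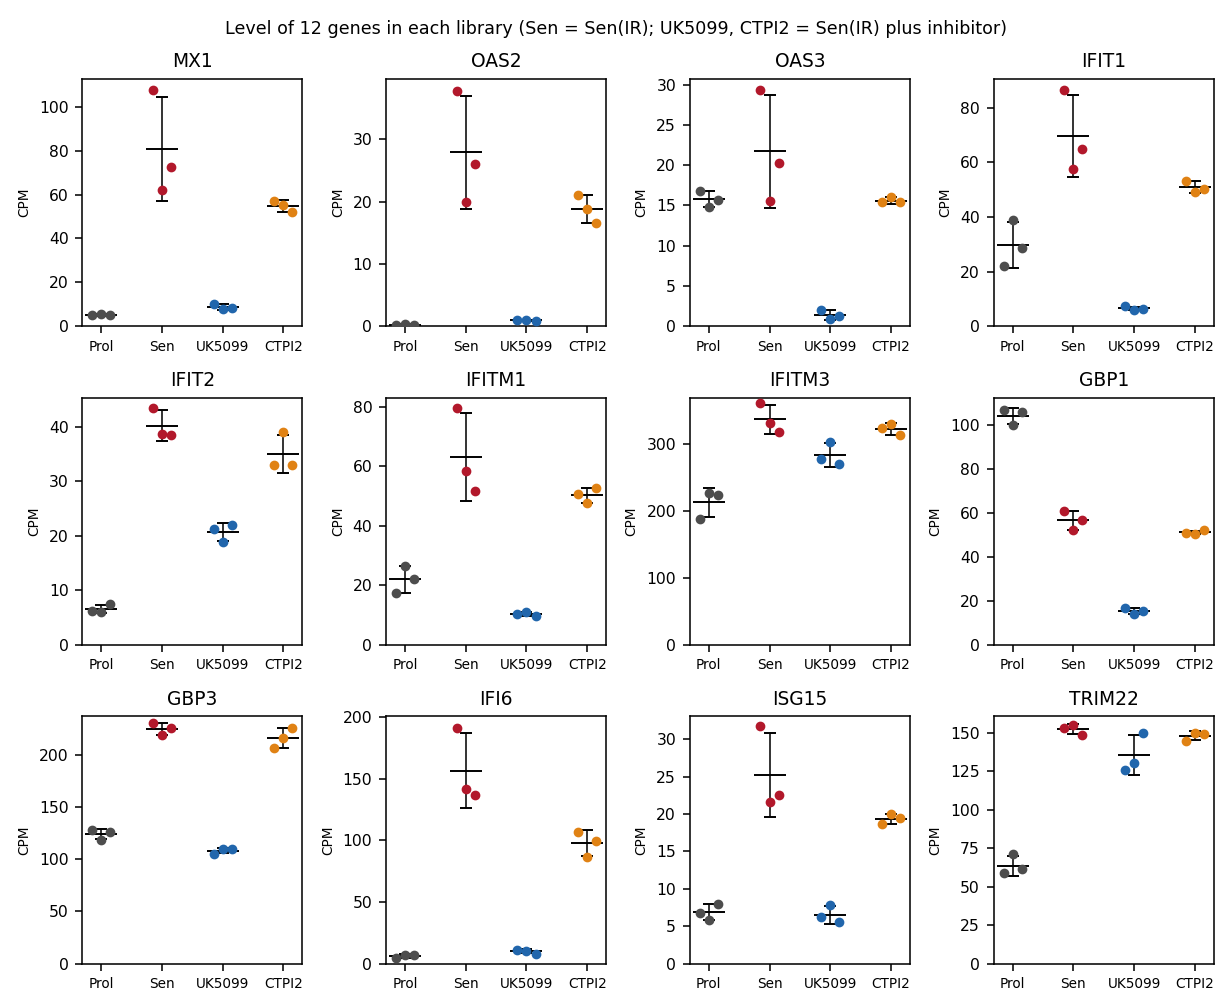
Points are CPM in each library for 12 of the 44 genes, with the mean and SD of each group (n = 3) in black and each axis starting at 0. MX1, OAS2, IFI6 and ISG15 are low in Prol and with UK5099, GBP1 is highest in Prol at 99.9 to 107 CPM, and TRIM22 stays at 126 to 155 CPM in every irradiated group.

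Of the IFIT proteins, IFIT1 and IFIT5 bind foreign RNA by its unmodified end. The genes of the family form a cluster on chromosome 10 between 89283694 and 89421605. IFIT1 measured 22.0, 38.8 and 28.6 CPM in Prol, 86.5, 57.7 and 65.0 CPM in Sen(IR), 7.29, 5.97 and 6.12 CPM under UK5099 and 53.2, 49.3 and 50.3 CPM with CTPI2. Every UK5099 library lay below every Prol library. IFIT1 rose by 1.23 ± 0.14 in senescence, was lower with UK5099 than in Sen(IR) (−3.44 ± 0.17) and ended 4.62-fold below Prol (−2.21 ± 0.17), with edgeR adjusted p of 7.44e-08, 1.64e-13 and 1.15e-10.

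IFIT2, a partner of IFIT1 and IFIT3, had a larger fitted rise and a smaller fitted difference with UK5099. It measured 6.23, 6.01 and 7.44 CPM in Prol, 43.5, 38.7 and 38.4 CPM in Sen(IR), 21.3, 18.9 and 22.0 CPM under UK5099 and 33.1, 39.1 and 33.1 CPM with CTPI2. The UK5099 libraries lay between the Prol and the Sen(IR) libraries with no overlap on either side. The log2 fold changes were 2.61 ± 0.10 in senescence, −0.96 ± 0.09 with UK5099 and 1.65 ± 0.10 for UK5099 against Prol (edgeR adjusted p of 5.02e-16, 7.36e-09 and 2.29e-12). Of the IFIT2 exon bases, 13.6% overlap LIPA on the other strand or an unnamed annotated gene on the same strand. That unnamed gene also holds 6.28% of the stretches of 100 bases in IFIT2 transcripts, so IFIT2 counts are less certain.

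IFIT3, a partner of both, ended close to the Prol level. It measured 23.7, 24.3 and 24.6 CPM in Prol and 89.2, 63.2 and 75.5 CPM in Sen(IR). It averaged 20.5 ± 0.49 (SD, n = 3) CPM with UK5099 and 63.9 ± 1.66 CPM with CTPI2, and the difference of UK5099 from Prol was −0.24 ± 0.09. IFIT5, which also binds the ends of foreign RNA, was not called in either comparison. Its mean was 47.7 ± 3.49 (SD, n = 3) CPM in Prol, 61.1 ± 4.02 in Sen(IR), 45.7 ± 2.13 with UK5099 and 58.2 ± 2.59 with CTPI2. Its log2 fold changes of 0.36 ± 0.07 and −0.42 ± 0.07 had edgeR adjusted p of 6.60e-05 and 2.43e-05 but did not reach the limit on size.

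The IFITM proteins sit in membranes and block the fusion of viruses, and their genes lie on chromosome 11 between 303655 and 329475. IFITM1, found at the cell surface, measured 17.4, 26.5 and 22.0 CPM in Prol, 79.6, 58.3 and 51.5 CPM in Sen(IR), 10.2, 11.1 and 9.69 CPM under UK5099 and 50.7, 47.5 and 52.6 CPM with CTPI2. All UK5099 libraries were below all Prol libraries. IFITM1 rose by 1.52 ± 0.13 in senescence, and the difference with UK5099 was −2.61 ± 0.14 from Sen(IR) and −1.09 ± 0.15 from Prol (edgeR adjusted p of 5.30e-10, 8.33e-13 and 7.08e-07).

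IFITM3, the endosomal member, was the most abundant of the 3 per length of exon in each group (118 CPM per kb in Sen(IR), with IFITM2 at 41.6 and IFITM1 at 37.9). By the canonical transcript IFITM3 was also highest in Sen(IR) (550 CPM per kb), but IFITM1 (94.5) stood above IFITM2 (66.5). Prol libraries held 187, 226 and 224 CPM of IFITM3 and Sen(IR) libraries 360, 331 and 318 CPM, a rise of 0.66 ± 0.07 (edgeR adjusted p = 7.41e-09). With UK5099 it stood at 277, 303 and 270 CPM, between the groups, with a difference of −0.25 ± 0.07 from Sen(IR) that was under the limit on size. IFITM2 went the other way in senescence, with 96.9, 105 and 111 CPM for Prol and 67.0, 67.7 and 65.8 CPM for Sen(IR) (−0.64 ± 0.06, edgeR adjusted p = 6.51e-09), and was at 72.0, 73.2 and 68.4 CPM with UK5099, which was not called. Some sequence is shared within this family and with an unnamed annotated gene that overlaps IFITM1 on the same strand. Of the stretches of 100 bases in IFITM1 transcripts, 17.9% also occur in other genes, most of all in that unnamed gene. The shares were 8.26% for IFITM3 and 6.81% for IFITM2, most of all with IFITM1. Other annotated genes overlap 31.6% of the IFITM1 exon bases, so reads of the 3 IFITM genes may be lost or shared.

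The guanylate-binding proteins are large GTPases that act at the membranes around intracellular pathogens and are classic targets of interferon gamma. GBP1, GBP2 and GBP3 lie on chromosome 1 between 89006679 and 89150456. GBP1 was highest in proliferating cells, at 107, 99.9 and 105 CPM, against 60.9, 52.1 and 56.5 CPM in Sen(IR), 16.8, 14.1 and 15.2 CPM under UK5099 and 50.7, 50.5 and 51.9 CPM with CTPI2. No pair of groups overlapped. Its level fell by 0.88 on the log2 scale in senescence (−0.88 ± 0.06) and was lower again with UK5099 (−1.88 ± 0.07), which left it 6.76-fold below Prol (−2.76 ± 0.07, edgeR adjusted p = 3.24e-19).

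GBP2 and GBP3 rose in senescence instead. GBP2 measured 17.8, 24.3 and 19.4 CPM in Prol, 49.8, 54.1 and 55.0 CPM in Sen(IR), 18.7, 19.8 and 18.8 CPM under UK5099 and 48.9, 47.0 and 52.2 CPM with CTPI2, and the UK5099 and Prol libraries overlapped. It rose by 1.37 ± 0.09 in senescence and was lower with UK5099 (−1.47 ± 0.09, edgeR adjusted p of 3.32e-12 and 4.55e-12). GBP3 measured 128, 119 and 126 CPM in Prol, 230, 218 and 225 CPM in Sen(IR), 105, 110 and 109 CPM under UK5099 and 206, 216 and 226 CPM with CTPI2. The GBP3 libraries of Sen(IR) lay above those of Prol and of UK5099 (0.85 ± 0.05 and −1.05 ± 0.05, edgeR adjusted p of 1.24e-12 and 1.53e-13). Of the GBP2 transcripts, 7.21% of the stretches of 100 bases also occur in GBP7, so its counts are less certain. All 3 GBP genes were called lower with UK5099.

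SAMD9 and SAMD9L, neighbours on chromosome 7, restrict poxviruses. SAMD9L measured 38.3, 38.2 and 30.4 CPM in Prol, 93.6, 82.1 and 83.2 CPM in Sen(IR), 41.5, 36.3 and 40.1 CPM under UK5099 and 80.0, 85.7 and 85.0 CPM with CTPI2. It rose by 1.28 ± 0.08 and was lower with UK5099 (−1.13 ± 0.08, edgeR adjusted p of 2.34e-12 and 6.76e-11), while UK5099 and Prol overlapped. SAMD9 ranged from 22.4 to 24.0 CPM in Prol, from 29.1 to 34.5 CPM in Sen(IR) and from 19.3 to 22.1 CPM with UK5099. Its difference in senescence (0.45 ± 0.08) was under the limit on size and that with UK5099 (−0.62 ± 0.08) was called.

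Attachment of ISG15 to proteins needs the E2 enzyme UBE2L6 and an E3 enzyme, in human cells mainly HERC5, and USP18 removes it and also restrains the interferon receptor. ISG15 measured 6.78, 5.88 and 7.99 CPM in Prol, 31.8, 21.6 and 22.5 CPM in Sen(IR), 6.21, 7.86 and 5.50 CPM under UK5099 and 19.4 ± 0.65 (SD, n = 3) CPM with CTPI2. The Prol and UK5099 libraries overlapped and all others lay above them. ISG15 rose 3.66-fold (1.87 ± 0.14) and was 3.87-fold lower with UK5099 (−1.95 ± 0.14, edgeR adjusted p of 8.88e-11 and 1.82e-10).

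The attaching enzymes HERC5 and UBE2L6 were called in the same directions, and so was HERC6. HERC5 measured 0.768, 1.03 and 1.30 CPM in Prol, 4.23, 4.65 and 3.87 CPM in Sen(IR), 1.86, 1.59 and 1.86 CPM under UK5099 and 3.29, 4.75 and 4.46 CPM with CTPI2, with UK5099 between Prol and Sen(IR). HERC6, its neighbour on chromosome 4, measured 5.89, 6.65 and 5.13 CPM in Prol, 46.2, 31.0 and 37.0 CPM in Sen(IR), 10.3, 8.90 and 9.69 CPM under UK5099 and 29.9, 29.8 and 29.2 CPM with CTPI2. Both HERC genes stayed above Prol with UK5099 (0.76 ± 0.24 and 0.71 ± 0.14, edgeR adjusted p of 0.00678 and 8.07e-05). UBE2L6 ranged from 34.8 to 40.5 CPM in Prol, from 66.5 to 72.4 CPM in Sen(IR) and from 44.7 to 45.8 CPM with UK5099, and was called in both directions (0.90 ± 0.06 and −0.64 ± 0.06).

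USP18, the remover, was not called in senescence (0.35 ± 0.14, and 0.20 without Sen(IR) replicate 1). Prol libraries held 8.19, 9.57 and 9.67 CPM of it, and Sen(IR) libraries 14.0, 10.7 and 10.3 CPM. With UK5099 it was at 3.64, 2.23 and 3.06 CPM, below every Prol library (−1.63 ± 0.16, edgeR adjusted p = 3.74e-09). Of its transcripts, 15.5% of the stretches of 100 bases occur in USP41 or other annotated genes.

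PARP9 and PARP14, enzymes of ADP-ribosylation, and DTX3L, the ubiquitin ligase that binds PARP9, lie together on chromosome 3 between 122527924 and 122730840. PARP14 measured 53.5, 56.8 and 50.4 CPM in Prol, 124, 104 and 104 CPM in Sen(IR), 60.0, 53.3 and 68.3 CPM under UK5099 and 101, 104 and 107 CPM with CTPI2. It rose by 1.05 ± 0.08 and was lower with UK5099 (−0.87 ± 0.08, edgeR adjusted p of 8.89e-11 and 6.60e-09). PARP9 was called in the same directions (0.64 ± 0.09 and −0.73 ± 0.09). DTX3L, whose start overlaps the PARP9 gene on the other strand, was called in neither (0.17 ± 0.07 and −0.37 ± 0.07).

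Among the single genes, IFI6, an antiviral protein of the endoplasmic reticulum and mitochondria, had the largest fitted rise of the members above 100 CPM in Sen(IR). It measured 4.56, 7.21 and 7.10 CPM in Prol, 191, 141 and 137 CPM in Sen(IR), 11.4, 9.98 and 8.14 CPM under UK5099 and 107, 86.3 and 99.4 CPM with CTPI2. The 4 groups did not overlap. IFI6 rose 24.8-fold (4.63 ± 0.15) and was 15.9-fold lower with UK5099 (−4.00 ± 0.14), at 0.64 ± 0.18 above Prol (edgeR adjusted p of 1.97e-17, 3.66e-16 and 0.00273). With CTPI2 it was 1.61-fold lower than in Sen(IR) (−0.68 ± 0.11, edgeR adjusted p = 0.00286). Without Sen(IR) replicate 1 this was −0.51 with an adjusted p of 0.0498, without Sen(IR)+CTPI2 replicate 2 the adjusted p was 0.0554, and DESeq2 gave 0.0685. Of its exon bases, 23.1% overlap LINC02574 on the same strand, and 10.7% of the stretches of 100 bases in its transcripts also occur there, so its counts are less certain.

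IFI44L and IFI44, cytoplasmic proteins of the response, are neighbours that rose together. IFI44L measured 0.426, 0.644 and 0.595 CPM in Prol, 19.3, 9.53 and 14.0 CPM in Sen(IR), 0.704, 0.0742 and 0.271 CPM under UK5099 and 9.60 ± 1.02 (SD, n = 3) CPM with CTPI2. Its log2 fold change was 4.67 ± 0.30 in senescence and −5.38 ± 0.33 with UK5099 (edgeR adjusted p of 5.44e-12 and 8.11e-12), with overlap between UK5099 and Prol. IFI44 had means of 4.40 ± 0.42 (SD, n = 3) CPM in Prol, 22.7 ± 4.34 in Sen(IR), 4.11 ± 0.99 with UK5099 and 15.6 ± 0.94 with CTPI2, and was called higher in senescence (2.37 ± 0.15) and lower with UK5099 (−2.48 ± 0.15). The IFI44 difference with CTPI2 was −0.55 ± 0.13 (edgeR adjusted p = 0.0618), and DESeq2 called it with an adjusted p of 0.016. It was −0.37 without Sen(IR) replicate 1 (edgeR adjusted p = 0.600).

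RSAD2 (viperin), which makes a chain-terminating nucleotide, and CMPK2, a nucleotide kinase, are neighbours on chromosome 2 whose annotated exons overlap on opposite strands, by 6.2% of the bases of RSAD2 and 8.0% of those of CMPK2. RSAD2 measured 0.128, 0 and 0.186 CPM in Prol, 2.98, 2.46 and 3.53 CPM in Sen(IR), 0, 0 and 0.271 CPM under UK5099 and 2.15, 1.69 and 2.38 CPM with CTPI2. Its level in Prol and with UK5099 was near that of 3 counts. The log2 fold change was 4.72 ± 0.53 in senescence and −4.96 ± 0.54 with UK5099 (edgeR adjusted p of 4.67e-08 and 1.05e-07). All 7 counts of RSAD2 with UK5099 were in 1 library, and without that library, Sen(IR)+UK5099 replicate 3, the fitted value was −9.14, which depends on the prior count. CMPK2 was called in the same directions (3.00 ± 0.50 and −2.77 ± 0.48).

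BST2 (tetherin), which holds budding viruses at the cell surface, had 4 counts in all in the Prol libraries. It measured 4.94, 2.46 and 3.43 CPM in Sen(IR), 0.166, 0.371 and 0.271 CPM under UK5099 and 2.76, 2.23 and 2.08 CPM with CTPI2. From pooled counts Sen(IR) stood 67.0 times above Prol (25.8 to 248) and UK5099 stood 5.02 times above Prol (1.70 to 20.1). The fall with UK5099 was −3.71 ± 0.36 on the log2 scale (edgeR adjusted p = 2.26e-08).

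EPSTI1, first described in the epithelial and stromal interplay of tumours, joined IFIT1 and OAS3 in ending far below Prol. It measured 7.59, 9.66 and 8.81 CPM in Prol, 20.7, 16.1 and 15.4 CPM in Sen(IR), 0.911, 1.11 and 0.969 CPM under UK5099 and 13.8, 13.1 and 12.8 CPM with CTPI2. The 4 groups did not overlap. The log2 fold change was 1.01 ± 0.12 in senescence, −4.12 ± 0.16 with UK5099 and −3.11 ± 0.17 for UK5099 against Prol (edgeR adjusted p of 8.69e-08, 3.16e-15 and 2.25e-13).

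IFI27, a mitochondrial protein of the IFI6 family, measured 0.384, 0.601 and 0.744 CPM in Prol, 6.85, 3.22 and 4.02 CPM in Sen(IR), 0.414, 0.705 and 0.659 CPM under UK5099 and 3.11, 3.38 and 3.29 CPM with CTPI2. Sen(IR) replicate 1 was the highest library. The log2 fold change was 3.01 ± 0.30 in senescence (2.63 without that library) and −2.97 ± 0.30 with UK5099 (edgeR adjusted p of 7.31e-09 and 2.67e-08). XAF1, an antagonist of the apoptosis inhibitor XIAP, was called higher in senescence (2.41 ± 0.21) and lower with UK5099 (−3.08 ± 0.22). The XAF1 value with CTPI2 was −0.72 ± 0.18 (edgeR adjusted p = 0.0938, and 0.0467 with DESeq2), and −0.51 without Sen(IR) replicate 1 (edgeR adjusted p = 0.676). Of its exon bases, 38.3% overlap PRAL on the other strand, and whether counting used strand is not stated.

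TRIM22, a ubiquitin ligase that restricts viruses, was called with neither inhibitor. It measured 58.6, 71.0 and 61.3 CPM in Prol, 153, 155 and 149 CPM in Sen(IR), 126, 130 and 150 CPM under UK5099 and 145, 150 and 149 CPM with CTPI2. It rose by 1.26 ± 0.07 in senescence and was 1.09 ± 0.07 above Prol with UK5099 (edgeR adjusted p of 2.68e-13 and 2.55e-12). The difference between UK5099 and Sen(IR) was −0.17 ± 0.07, and their libraries overlapped. LY6E, which blocks the fusion of some viruses, was also called higher with UK5099 than in Prol (0.86 ± 0.07). Its means were 32.8 CPM in Prol, 91.5 in Sen(IR) and 59.7 with UK5099, and its differences in senescence (1.48 ± 0.07) and with UK5099 from Sen(IR) (−0.62 ± 0.06) were called.

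IFI16, a sensor of DNA, was lower in senescence, at 96.9, 91.4 and 94.9 CPM where Prol had 126, 151 and 138 CPM (−0.55 ± 0.06, edgeR adjusted p = 5.85e-08), and this call was not made without Prol replicate 2 (−0.48). It was at 83.7 to 91.7 CPM with UK5099 and 95.2 to 104 CPM with CTPI2. PLSCR1, a membrane scramblase, was called in none of the comparisons with Sen(IR) (−0.25 ± 0.08 against Prol, −0.41 ± 0.08 with UK5099). The helicase DDX60, IFI35 and RTP4 were called higher in senescence and lower with UK5099, with log2 fold changes of 1.57, 1.14 and 1.33 in the former and −1.29, −1.73 and −2.07 in the latter. SP110, a nuclear body protein, was called higher in senescence only (0.55 ± 0.12, and −0.26 ± 0.12 with UK5099), and the exonuclease ISG20, below 1 CPM in every library, was called with UK5099 only (−1.38 ± 0.51, edgeR adjusted p = 0.032, and 0.13 ± 0.45 in senescence). For neither gene was the difference between these effects tested.

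The effector genes did not return to a common level with UK5099. Against Prol, 9 of the 44 were called higher, where 26.9% of all genes were, 13 were called lower, where 26.2% were, and 22 were not called. The median was −0.09, against 0.01 over all genes. The share called was near that of all genes in both directions, so the count by itself does not set these genes apart. Among those called higher were BST2, OAS2 (1.87 ± 0.51), IFIT2 (1.65 ± 0.10), TRIM22 and LY6E, and among those called lower OAS3, EPSTI1, OASL, GBP1 and IFIT1. Within the OAS and IFIT families members were thus called on opposite sides of Prol. The BST2 call was not made without Prol replicate 3 (fitted log2 fold change 1.61) or without Sen(IR)+UK5099 replicate 2 (1.91), and the value was 3.47 without Prol replicate 2, where it was 2.22 with all libraries.

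**Figure D5:**
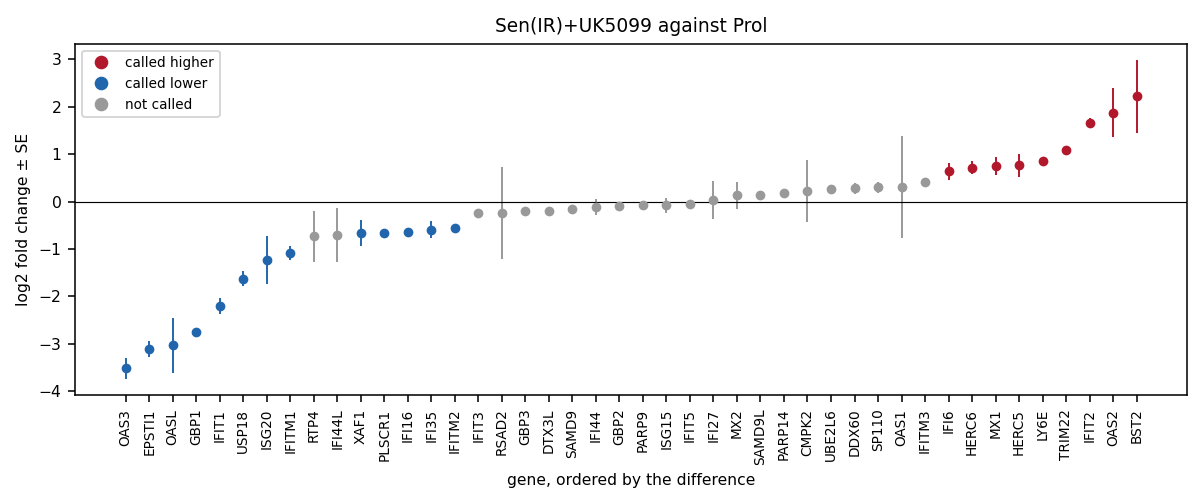
Points are fitted log2 fold changes with their SE for Sen(IR)+UK5099 against Prol, ordered by size and coloured by call. The 13 genes called lower begin with OAS3 (−3.52), EPSTI1 (−3.11) and OASL, and the 9 called higher end with OAS2 (1.87) and BST2, where the values of OASL, BST2 and OAS1 rest on groups with 3 counts or fewer in each library.

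With CTPI2 the genes stayed near the senescent level. Against Prol, 34 were called higher, where 24.8% of all genes were, and 2 lower (GBP1 and IFITM2), where 21.9% were, with a median of 1.23 over the 44 and 0.01 over all genes. Among those called, the differences were 6.24 ± 0.30 for OAS2, 4.10 ± 0.32 for IFI44L and 4.19 ± 0.55 for RSAD2. OAS1 stood 93.8 times above Prol from pooled counts (31.7 to 458), and BST2 43.3 times (16.6 to 161).

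The inhibitors were also set against each other, at doses that were not equal. With UK5099, 34 of the 44 genes were called lower than with CTPI2, where 11.7% of all genes were, and 0 were called higher, where 8.2% were. None was higher at an unadjusted p under 0.05, where 24.8% of all genes were, and DESeq2 called 34 lower and 0 higher. The median was −1.59, against 0.01 over all genes. The differences were −4.80 ± 0.34 for IFI44L, −4.43 ± 0.56 for RSAD2 and −4.36 ± 0.23 for OAS2 (edgeR adjusted p of 1.33e-10, 1.12e-06 and 8.40e-13), and OAS1 and OASL stood 73.5 times (28.4 to 272) and 26.5 times (11.1 to 83.2) higher with CTPI2 from pooled counts. The RSAD2 value was −8.61 without Sen(IR)+UK5099 replicate 3, which held all its counts in that group. Genes that were not called here were IFIT5, IFITM2, IFITM3, IFI16, TRIM22, SP110, PLSCR1, DTX3L, LY6E and ISG20.

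Other genes of the pathway were counted from lists, to be read against the 24.8% of all genes called higher and 22.4% called lower in senescence and the 12.1% called lower with UK5099. Of 9 interferon ligands none passed the filter on low counts, and the most counts in any library were 10 for IFNE and 3 for IFNB1, so changes in ligand RNA were not detectable at this depth. Of 8 receptors and JAK kinases tested, 4 were called higher in Sen(IR) than in Prol and 0 were called with either inhibitor. Of all genes, 8.76% were called higher with UK5099, and with CTPI2 0.148% were called lower and 0.0185% higher. The 0 calls with CTPI2 thus do not set these 8 genes apart. Of 6 transcription factors tested, 4 were called higher in senescence, among them IRF9 (1.01 ± 0.27) and IRF1 (0.99 ± 0.06), and 2 were called lower with UK5099, IRF7 (−1.28 ± 0.27) and IRF1 (−1.16 ± 0.06).

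Of 9 genes for sensing nucleic acids, 5 were called higher in senescence and 1 lower, and 5 were called lower with UK5099. The RNA sensor IFIH1 (MDA5) was called in both comparisons (2.01 ± 0.11 and −2.13 ± 0.11), as was TLR3 (1.76 ± 0.15 and −1.61 ± 0.14). The DNA sensor cGAS, listed as MB21D1, had a mean of 16.3 CPM in Prol, against 4.20 in Sen(IR) (−1.96 ± 0.14) and 3.99 with UK5099. Of 5 genes that feed back on the signal, 2 were called lower in senescence and 1 lower with UK5099, where 22.4% and 12.1% of all genes were. Of 34 other interferon-stimulated genes tested, 18 were called higher and 1 lower in senescence, and 21 were called lower with UK5099. With CTPI2 the only call in these lists was CXCL10, a chemokine, at 76.3 ± 10.2 (SD, n = 3) CPM against 124 ± 4.90 CPM in Sen(IR) (−0.70 ± 0.09, edgeR adjusted p = 6.37e-05), and it was at 0.223 CPM with UK5099 and 0.239 CPM in Prol.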

How the data were processed

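The study sequenced paired ends of 12 libraries (4 groups of 3). The authors trimmed reads, aligned them to GRCh38 and assigned them to genes. The submitters' processing notes name Trimmomatic 0.36, STAR 2.5.2b and featureCounts of Subread 1.5.2. The deposited values are raw counts per gene, with no normalization. Samples were grouped by their titles. Strandedness is not given in the sources used here.

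Counts were fitted in R 4.3.3 with edgeR 4.0.16 (filterByExpr, TMM, glmQLFit and glmQLFTest) in one model of the 12 libraries, with Benjamini-Hochberg adjustment over 16251 genes. The SE is the absolute log2 fold change divided by the square root of F. The coefficient of variation between replicates was 6.12%. On simulated data with known changes the test was checked before use. Where a group had 3 counts or fewer in every library, the ratio of pooled counts is given with an exact 95% interval. Levels are CPM of the TMM-scaled library. Exon lengths, overlaps and shared stretches of 100 bases come from GENCODE v44, promoters from RefSeq.

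The members and gene lists were chosen with earlier results of these data known. All 44 members are given. Full statistics were set for the 8 largest calls in each direction for Sen(IR) against Prol and UK5099 against Sen(IR), the 4 largest in the other comparisons, all calls with CTPI2 and the highest member of each family per length. Further members were described after their values were seen, as were the genes named outside the 44 beyond the 3 largest calls of a list. A comparison of protein sequences was planned and is not reported here, and 1 gene outside the 44 was left out of the gene lists. The alternatives were DESeq2 1.42.0, scaling by RLE or the upper quartile, a fit of unfiltered genes, a fit of the compared groups, a replicate block, other limits and leaving out each library. The canonical transcript as length was added after seeing the data.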

Additional observations from a re-analysis of the deposited data

How the results depend on the processing

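The counts of genes called higher in Sen(IR) than in Prol and lower with UK5099 than in Sen(IR) or with CTPI2 stayed within 1.5 times their value under every alternative run, including DESeq2. With each library left out in turn they ranged from 33 to 36, from 35 to 36 and from 34 to 35. The small counts moved more. For CTPI2 against Sen(IR), 2 genes lower became 6 without the filter on low counts, 4 with only the compared groups in the fit, 9 with the unadjusted p, 0 with an absolute log2 fold change over 1 and 0 to 4 with a library left out. DESeq2 also called 2, but these were IFI44 and XAF1 and not MX1 and IFI6. Under the limit of 1 the 3 genes lower in Sen(IR) than in Prol became 0 (2 to 3 with a library left out), those higher and lower with UK5099 than in Prol became 4 and 8 (8 to 9 and 10 to 13), and the 2 lower with CTPI2 than in Prol became 1 (2 to 3), as they did with upper-quartile scaling, whereas the adjusted p alone gave 4. The 34 higher with CTPI2 than in Prol ranged from 32 to 34. Upper-quartile scaling moved the median of all genes by 0.12, 0.14 and 0.11 on the log2 scale for Sen(IR), UK5099 and CTPI2 against Prol. Under it IFIT5 turned from −0.0605 to 0.0792 for UK5099 against Prol, and the calls of IFI16 in Sen(IR) and IFITM2 with CTPI2 against Prol were not made. SAMD9L turned from −0.0465 to 0.0163 for CTPI2 against Sen(IR) without Sen(IR) replicate 1, and its range with a library left out began at −0.0810. The call of MX1 with CTPI2 was not made in 6 of the fits that left out a library. By the canonical transcript IFIT3 and PARP9 in place of IFIT5 and PARP14 were highest per length in their families. The cause of these changes was not tested. Libraries with the same replicate number did not deviate together (18 correlations between −0.0511 and 0.0423), so no pairing by number was visible. These values cannot settle whether such libraries shared a culture or an experiment. With a replicate block the counts were 34 higher in Sen(IR) than in Prol and 36 lower with UK5099, and 3 were lower with CTPI2, since OAS2 was called as well (−0.54, edgeR adjusted p = 0.0478). Levels under about 0.1 CPM rest on 3 counts or fewer.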
